A study of Mus musculus with 9 samples.

Results

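The blood endothelial markers are 10 genes whose transcripts identify the cells that line blood vessels: Pecam1, Cldn5, Kdr, Flt1, Tek, Tie1, Esam, Emcn, Egfl7 and Plvap. They were chosen by name, as the rows of the expression table whose symbol field holds one of these symbols, and all 10 were found, each on 1 row of the 84809 rows. Expression was measured by RNA sequencing in 9 libraries of cells sorted on CD49f, the integrin α6 subunit (gene Itga6), from the dermis of newborn mice. There were 3 CD49f-high, 3 CD49f-low and 3 CD49f-neg libraries. The labels describe the cells of every gate as mesenchymal and as primary cells lysed without culture. The mice of all 3 gates carried Krt14 cre;Rosa26-mTmG, a recombinase driven by a keratin promoter of basal epidermal cells together with a membrane reporter that is switched where the recombinase has acted. How many animals gave each library, and whether vessel cells were gated out, are not given in the sources used here.

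Endothelial cells sense vascular endothelial growth factors through the receptors Kdr and Flt1 and angiopoietins through Tek, with which Tie1 associates. They are held together by junction proteins, among them Pecam1, Esam and Cldn5. Pericytes and smooth muscle cells, the mural cells, wrap around them, and lymphatic vessels are lined by a related endothelium. Skin is rich in both kinds of vessel, so a sort of dermal cells can carry some of each.

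Many endothelial promoters and enhancers are bound by ETS factors, whose core motif is GGAA. Promoters are shown for 3 members that were higher in CD49f-high cells (Tie1, Flt1 and Cldn5), for Kdr, which peaked in CD49f-low cells, and for Tek, which did not differ detectably. Each line holds the 250 bases before the gene's start from RefSeq (build GRCm38.p6), read 5′ to 3′ along the gene, with GGAA on either strand (TTCC on the strand shown) in capitals. The windows are chr4:118489850-118490099 on the minus strand for Tie1, chr5:147726012-147726261 on the minus strand for Flt1, chr16:18776597-18776846 on the plus strand for Cldn5, chr5:75978456-75978705 on the minus strand for Kdr and chr4:94739039-94739288 on the plus strand for Tek.
Tie1: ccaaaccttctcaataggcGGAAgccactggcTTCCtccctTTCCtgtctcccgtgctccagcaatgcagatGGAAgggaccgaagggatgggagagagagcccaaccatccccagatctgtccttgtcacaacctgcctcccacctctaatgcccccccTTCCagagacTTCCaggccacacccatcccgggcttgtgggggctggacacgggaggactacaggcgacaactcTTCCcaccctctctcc
Flt1: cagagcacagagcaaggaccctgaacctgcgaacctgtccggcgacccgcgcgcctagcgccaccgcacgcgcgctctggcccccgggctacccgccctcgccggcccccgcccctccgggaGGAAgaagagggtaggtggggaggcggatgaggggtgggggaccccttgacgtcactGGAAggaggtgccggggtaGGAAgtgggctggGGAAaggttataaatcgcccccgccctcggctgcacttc
Cldn5: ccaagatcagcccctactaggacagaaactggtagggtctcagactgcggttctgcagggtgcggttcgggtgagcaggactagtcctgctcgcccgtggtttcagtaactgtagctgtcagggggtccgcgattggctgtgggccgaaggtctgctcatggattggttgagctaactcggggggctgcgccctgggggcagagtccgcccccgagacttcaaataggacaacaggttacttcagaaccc
Kdr: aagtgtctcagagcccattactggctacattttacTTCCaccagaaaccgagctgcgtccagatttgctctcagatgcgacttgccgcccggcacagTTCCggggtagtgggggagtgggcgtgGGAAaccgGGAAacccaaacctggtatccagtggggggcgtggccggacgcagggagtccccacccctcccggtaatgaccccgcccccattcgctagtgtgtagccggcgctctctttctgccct
Tek: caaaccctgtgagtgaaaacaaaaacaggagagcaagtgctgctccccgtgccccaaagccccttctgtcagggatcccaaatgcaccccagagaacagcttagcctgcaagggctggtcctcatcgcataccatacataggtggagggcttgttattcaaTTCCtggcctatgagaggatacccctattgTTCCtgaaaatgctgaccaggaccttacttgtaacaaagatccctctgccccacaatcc
The core occurred 7 times in the Tie1 window, 4 times in the Flt1 window, 0 times in the Cldn5 window, 4 times in the Kdr window and 2 times in the Tek window. Of 32851 promoter windows of the same length, 93.4% held at least 1 such core, with a median of 3. The longer form CAGGAA, which contains the core, was found on either strand in 25.7% of windows, 1 time in that of Tie1 and 2 times in that of Tek. Entries matched 7 of the 10 members. These matches describe letters in a window, and binding was not measured.

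Levels are FPKM, fragments per kilobase of transcript scaled to the mapped fragments of a library, as the authors deposited them. Members were sparse: in single libraries they ranged from 0 FPKM (Emcn) to 17.3 FPKM (Esam), and the estimated number of fragments behind a value was below 100 in every library for Pecam1, Emcn and the Egfl7 row. Differences are in mean log2(FPKM + 1), fitted with limma over the 20523 rows with at least 1 FPKM in at least 3 libraries, and a row was called at a Benjamini-Hochberg adjusted p under 0.05. On this scale the change of low genes is understated. Kdr, Flt1, Tek, Cldn5, Esam, Plvap and the Egfl7 row passed that filter, and Pecam1, Tie1 and Emcn did not. A row can pass through the 3 libraries of the gate where it is high, so counts over the 7 that passed are no summary of all 10. Because these are bulk samples, fewer cells of a type and less RNA per cell cannot be told apart.

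In CD49f-high cells, 4 of the 7 members tested rose relative to CD49f-neg cells: Esam, Flt1, Cldn5 and Plvap. Over all rows tested, 22.1% were called in this comparison, 13.9% as higher and 8.27% as lower. In CD49f-low cells Kdr, Flt1 and Plvap rose relative to CD49f-neg cells, where 15.4% of all rows were called, 12.8% as higher and 2.62% as lower. Between CD49f-high and CD49f-low cells, Esam rose and Kdr fell, where 16.4% of rows were called, 5.93% as higher and 10.5% as lower. The members tested had a median difference of 0.94, 0.67 and 0.27 in these 3 comparisons in that order, and all rows tested had 0.07, 0.21 and -0.15. With the replicate number as a block, a fit that lets libraries of the same number share a level, 31.2%, 28.3% and 25.9% of rows were called and 5, 5 and 4 of the members tested. The comparisons share gates, so they are not independent of each other.

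**Figure D1:**
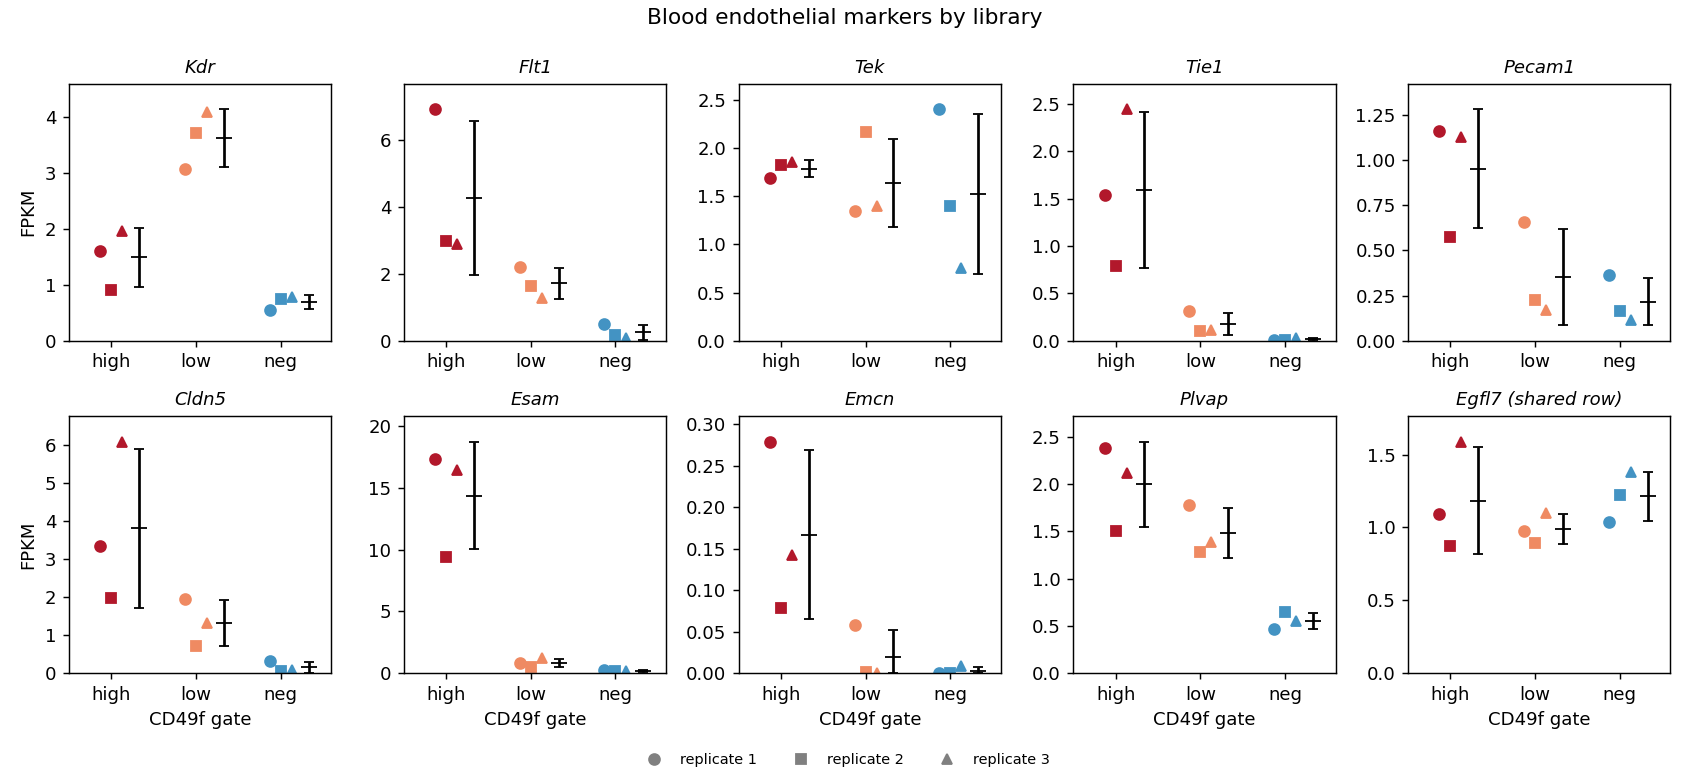
FPKM (y axis) of each of the 10 markers in CD49f-high, CD49f-low and CD49f-neg libraries (x axis), with 1 symbol per replicate number and the mean ± SD of the 3 libraries of a gate in black. Esam, Tie1 and Cldn5 step down from the high to the low to the negative gate, Kdr is highest in the low gate, and Tek and the row shared by Egfl7 overlap across gates.

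Kdr, the main signalling receptor for VEGF-A, lies on chromosome 5 (75932827 to 75978458, minus strand, build GRCm38). It had 1.60, 0.913 and 1.95 FPKM in CD49f-high replicates 1, 2 and 3, 3.06, 3.71 and 4.08 FPKM in CD49f-low replicates, and 0.547, 0.736 and 0.786 FPKM in CD49f-neg replicates. The 3 gates did not overlap, with the low gate on top and the negative gate at the bottom. Kdr rose in CD49f-low relative to CD49f-neg cells (difference 1.45, SE 0.17, limma adjusted p = 0.000553) and was lower in CD49f-high than in CD49f-low cells (difference -0.91, SE 0.17, limma adjusted p = 0.00612). Each of the 3 same-numbered pairs of libraries showed both directions. Between CD49f-high and CD49f-neg cells the difference was 0.54 (SE 0.17, limma adjusted p = 0.0512). That last difference passed the threshold with the replicate number as a block (adjusted p = 0.0286), with a pseudocount of 0.1 (0.0343), with no trend (0.0492) and without CD49f-high replicate 2 (0.0108). Kdr was the most abundant member in CD49f-low libraries and the seventh most abundant in CD49f-high libraries. Melanocyte genes moved with it: the 8 markers summed to 8.91 to 17.6 FPKM in CD49f-high, 426 to 524 FPKM in CD49f-low and 2.63 to 4.05 FPKM in CD49f-neg libraries, and their part in the Kdr level was not tested.

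Flt1, the receptor that binds VEGF-A tightly and can act as a decoy, lies on the same chromosome (147561604 to 147726011, minus strand). Its row also covers 1 long noncoding RNA with no symbol. It had 6.92, 2.97 and 2.89 FPKM in CD49f-high, 2.21, 1.65 and 1.28 FPKM in CD49f-low, and 0.500, 0.174 and 0.0733 FPKM in CD49f-neg replicates. The gates did not overlap, and replicate 1 was the highest of every gate. Flt1 rose in CD49f-high relative to CD49f-neg cells (difference 2.01, SE 0.27, limma adjusted p = 0.000684), with a mean 17.1 times that of CD49f-neg cells, and rose in CD49f-low relative to CD49f-neg cells (difference 1.12, SE 0.27, limma adjusted p = 0.0254). The CD49f-low call was lost without CD49f-low replicate 1 (adjusted p = 0.0784), CD49f-low replicate 2 (0.0725), CD49f-neg replicate 2 (0.0714) or CD49f-neg replicate 3 (0.0922), with no filter (0.0697) and with quantile normalization (0.0713). Between CD49f-high and CD49f-low cells the difference was 0.88 (SE 0.27, limma adjusted p = 0.0568), which passed with the block (0.00560), with median-of-ratios scaling (0.0352) and with quantile normalization (0.0302). In CD49f-high cells Flt1 stood at 2.49 times and Kdr at 0.412 times its CD49f-low mean, and the difference between these 2 receptors of VEGF-A was not tested.

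Tek, the angiopoietin receptor, lies on chromosome 4 (94739289 to 94874976, plus strand), and its row also covers 1 long noncoding RNA. It had 1.69, 1.82 and 1.85 FPKM in CD49f-high, 1.35, 2.17 and 1.40 FPKM in CD49f-low, and 2.40, 1.40 and 0.758 FPKM in CD49f-neg replicates. The gates overlapped, and CD49f-neg replicates 1 and 3 were the highest and the lowest of all 9 libraries. The difference between CD49f-high and CD49f-neg cells was 0.20 (95% interval -0.31 to 0.70, limma adjusted p = 0.597), and that between CD49f-low and CD49f-neg cells was 0.10 (interval -0.40 to 0.61, limma adjusted p = 0.770) and turned to -0.06 with median-of-ratios scaling and -0.15 with quantile normalization. These intervals leave room for a difference of up to 0.70 in the first comparison and 0.61 in the second.

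Tie1, an orphan receptor that modulates Tek, lies on the same chromosome (118471191 to 118490061, minus strand). It had 1.54, 0.794 and 2.45 FPKM in CD49f-high, 0.312, 0.106 and 0.111 FPKM in CD49f-low, and 0.0101, 0.00778 and 0.0261 FPKM in CD49f-neg replicates. The gates did not overlap, and the negative gate held an estimated 1.08, 0.861 and 3.01 fragments per library, so no fold against it is given. The mean was 1.59 ± 0.827 FPKM in CD49f-high and 0.176 ± 0.117 FPKM in CD49f-low libraries (SD, n = 3 each). With no filter on low values all 84809 rows were tested, of which 5.96% were called between CD49f-high and CD49f-neg cells (3.79% as higher) and 4.36% between CD49f-high and CD49f-low cells (1.76% as higher). Tie1 differed between CD49f-high and CD49f-neg cells by 1.30 in that fit (limma adjusted p = 0.00583). In the same fit the difference between CD49f-high and CD49f-low cells was 1.09 (limma adjusted p = 0.0185), and that between CD49f-low and CD49f-neg cells was 0.21 (limma adjusted p = 0.680). Tie1 and its partner Tek thus had different patterns, Tek with overlapping gates and Tie1 with separate ones, and the difference between the 2 genes was not tested.

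Esam, an adhesion molecule of endothelial tight junctions and platelets, was the most abundant member in CD49f-high libraries and lies on chromosome 9 (37528078 to 37538319, plus strand). It had 17.3, 9.36 and 16.4 FPKM in CD49f-high, 0.801, 0.513 and 1.18 FPKM in CD49f-low, and 0.247, 0.130 and 0.129 FPKM in CD49f-neg replicates. Every CD49f-high library was far above every other library. Esam rose in CD49f-high relative to CD49f-neg cells (difference 3.67, SE 0.22, limma adjusted p = 6.51e-06) and relative to CD49f-low cells (difference 3.04, SE 0.22, limma adjusted p = 4.17e-05). The means stood at ratios of 85.3 and 17.3. The first is uncertain, since the CD49f-neg values rest on an estimated 11.6, 6.34 and 6.54 fragments per library. Between CD49f-low and CD49f-neg cells the difference was 0.63 (SE 0.22, limma adjusted p = 0.0828). It passed with the block (0.0280), with a pseudocount of 0.1 (0.00872), without CD49f-high replicate 2 (0.0281), which changes only the pooled spread, and in a fit restricted to the 6 libraries of these gates (0.0309). Of the rows with a symbol, 92.6% had a lower mean than Esam in CD49f-high cells, 48.4% in CD49f-low cells and 38.9% in CD49f-neg cells. The next highest member by this rank in CD49f-high cells, Flt1, stood above 73.6% of rows. Mural genes moved with Esam: their 14 markers summed to 966 to 1768 FPKM in CD49f-high, 131 to 211 FPKM in CD49f-low and 70.2 to 92.8 FPKM in CD49f-neg libraries. All 14 rose in CD49f-high cells relative to the negative gate, where 13.9% of all rows tested were higher. Of the 14, 1 was below 1 FPKM in every CD49f-low and CD49f-neg library and so passed the filter only through the high gate. The part of mural genes in the Esam level was not tested.

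Cldn5, the main claudin of endothelial tight junctions, lies on chromosome 16 (18776847 to 18778260, plus strand). It had 3.35, 1.99 and 6.10 FPKM in CD49f-high, 1.94, 0.724 and 1.31 FPKM in CD49f-low, and 0.323, 0.0541 and 0.0778 FPKM in CD49f-neg replicates. The gates did not overlap, but CD49f-high replicate 2 and CD49f-low replicate 1 nearly met. Cldn5 rose in CD49f-high relative to CD49f-neg cells (difference 1.98, SE 0.30, limma adjusted p = 0.00128). The 2 smaller steps both lay near the threshold, at 0.99 between CD49f-high and CD49f-low cells (SE 0.30, limma adjusted p = 0.0526) and 0.99 between CD49f-low and CD49f-neg cells (SE 0.30, limma adjusted p = 0.0549). With the block the adjusted p was 0.0202 for the first and 0.0214 for the second. The first step also passed with median-of-ratios scaling (0.0437), with quantile normalization (0.0373) and without CD49f-high replicate 2 (0.0157). The second passed with a pseudocount of 0.1 (0.0114), in the fit on 6 libraries (0.0196) and without CD49f-high replicate 2 (0.0330) or replicate 3 (0.0235).

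Pecam1, the CD31 antigen used to sort endothelium, lies on chromosome 11 (106654217 to 106750628, minus strand) on a row that also covers 1 long noncoding RNA. It had 1.16, 0.574 and 1.13 FPKM in CD49f-high, 0.657, 0.223 and 0.172 FPKM in CD49f-low, and 0.364, 0.164 and 0.117 FPKM in CD49f-neg replicates. The CD49f-high and CD49f-neg libraries did not overlap, while the CD49f-low libraries overlapped both, and replicate 1 was the highest of every gate. In the fit with no filter the difference was 0.68 between CD49f-high and CD49f-neg cells (limma adjusted p = 0.0585), 0.14 between CD49f-low and CD49f-neg cells (limma adjusted p = 0.754) and 0.54 between CD49f-high and CD49f-low cells (limma adjusted p = 0.155). Pecam1 was the ninth most abundant of the 10 members in CD49f-high cells.

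Plvap, which forms the diaphragms of fenestrae and caveolae, lies on chromosome 8 (71497754 to 71511769, minus strand). It had 2.38, 1.50 and 2.11 FPKM in CD49f-high, 1.78, 1.28 and 1.39 FPKM in CD49f-low, and 0.468, 0.641 and 0.550 FPKM in CD49f-neg replicates. Every CD49f-high and CD49f-low library was above every CD49f-neg library, while the high and low gates overlapped. Plvap rose in CD49f-high relative to CD49f-neg cells (difference 0.94, SE 0.14, limma adjusted p = 0.00135) and in CD49f-low relative to CD49f-neg cells (difference 0.67, SE 0.14, limma adjusted p = 0.0143). The second call was lost with quantile normalization (0.148) and without CD49f-neg replicate 3 (0.0503). The difference between CD49f-high and CD49f-low cells was 0.27 (interval -0.06 to 0.59, limma adjusted p = 0.246).

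Emcn, the sialomucin endomucin of veins and capillaries, lies on chromosome 3 (137341067 to 137432185, plus strand). It had 0.279, 0.0790 and 0.143 FPKM in CD49f-high, 0.0575, 0.00179 and 0 FPKM in CD49f-low, and 0, 0 and 0.00847 FPKM in CD49f-neg replicates. It was the least abundant member in every gate, with an estimated 7.32 to 23.3 fragments per CD49f-high library. CD49f-low replicate 1 held an estimated 5.05 fragments, close to the 7.32 of CD49f-high replicate 2. In the fit with no filter its difference between CD49f-high and CD49f-neg cells was 0.22 (limma adjusted p = 0.0655) and between CD49f-high and CD49f-low cells 0.19 (limma adjusted p = 0.117).

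Egfl7, a factor secreted by endothelium, shares its row on chromosome 2 (26580014 to 26593120, plus strand) with Gm20532, Mir126a and Fam69b, so which gene it measured is uncertain. The row had 1.09, 0.872 and 1.59 FPKM in CD49f-high, 0.979, 0.890 and 1.10 FPKM in CD49f-low, and 1.04, 1.22 and 1.38 FPKM in CD49f-neg replicates. The gates overlapped, with a difference of -0.03 between CD49f-high and CD49f-neg cells (interval -0.35 to 0.29, limma adjusted p = 0.917) that changed sign without CD49f-high replicate 2 or CD49f-neg replicate 3.

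**Figure D2:**
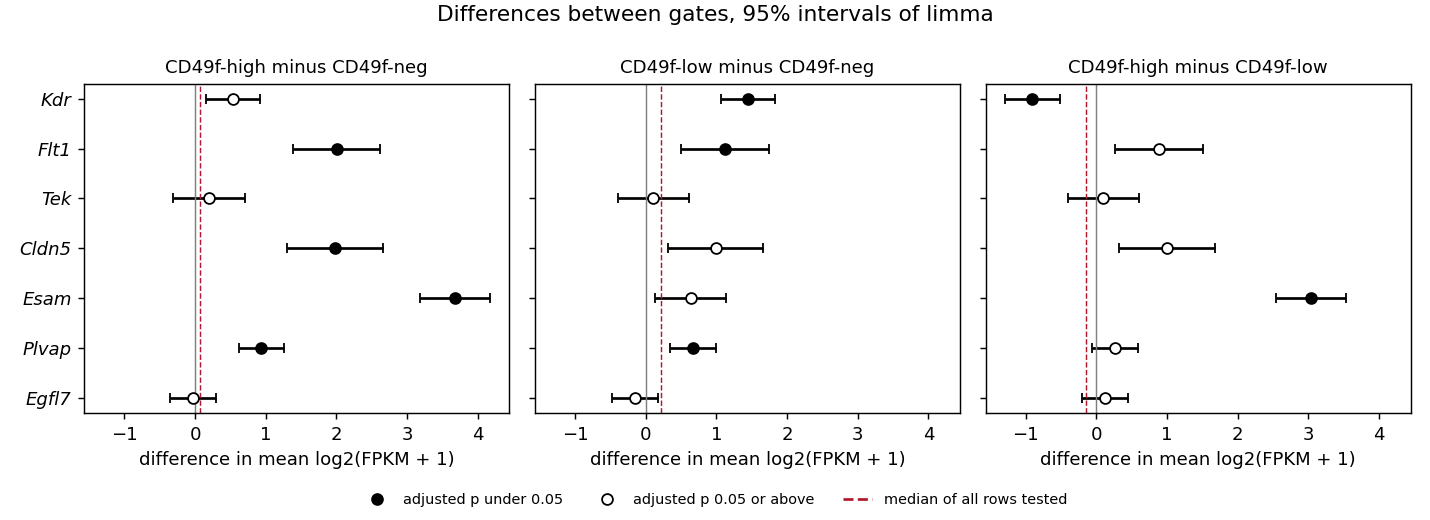
Differences in mean log2(FPKM + 1) (x axis) of the 7 markers that passed the filter, in 3 panels for CD49f-high minus CD49f-neg, CD49f-low minus CD49f-neg and CD49f-high minus CD49f-low, with 95% limma intervals. Filled points have an adjusted p under 0.05, the dashed line is the median of all rows tested, and Esam lies farthest right in the left and right panels while Kdr does so in the middle one.

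The members thus fell into several patterns over the 3 gates. How often other rows separate the gates in the same way was not counted, so these patterns only describe the members. Esam, Flt1, Cldn5 and Tie1 had no overlap between any 2 gates and decreased in the order high, low, negative. Kdr also had separate gates but peaked in the low one. Plvap separated the negative gate from the other 2, Pecam1 separated the high from the negative gate only, and Tek and the Egfl7 row separated none. Emcn separated the high gate from the other 2, but its values rest on too few fragments to rely on that separation. Summed over the 10 members, the level was 37.3, 20.9 and 36.6 FPKM in CD49f-high, 13.1, 11.3 and 12.02 FPKM in CD49f-low, and 5.90, 4.53 and 3.90 FPKM in CD49f-neg replicates. Esam made up 44.8% to 46.4% of the sum in CD49f-high libraries. Without it, in a sum chosen after the data were seen, the values were 20.0, 11.5 and 20.2 FPKM in CD49f-high, 12.3, 10.7 and 10.8 FPKM in CD49f-low, and 5.66, 4.40 and 3.77 FPKM in CD49f-neg replicates. In that sum CD49f-high replicate 2 lay within the range of the CD49f-low libraries. CD49f-high replicate 2 was the lowest library of its gate for 8 of the 10 members, and also for 12 of 14 mural rows and 7 of 11 lymphatic rows. It was lowest for 23 of 40 other blood endothelial, 2 of 10 ligand and co-receptor, 6 of 16 leukocyte and 4 of 9 platelet and erythroid rows. For fibroblast, keratinocyte, Schwann and melanocyte rows it was lowest in 0 of 10, 0 of 9, 0 of 8 and 1 of 8. The share over all rows was not counted.

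Scaling bears on these differences. Median-of-ratios scaling moved the median difference of all rows to 0.01 between CD49f-low and CD49f-neg cells and to -0.01 between CD49f-high and CD49f-low cells, against 0.21 and -0.15 as deposited. With it, 1117 rows were higher and 1093 lower in CD49f-low than in CD49f-neg cells, against 2623 and 537 as deposited. Between CD49f-high and CD49f-low cells, 1614 rows were higher and 1331 lower, against 1216 and 2151, and between CD49f-high and CD49f-neg cells 2480 were higher and 2232 lower, against 2844 and 1697. Each member called in the FPKM as deposited was also called with this scaling, in the same direction.

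The sorted antigen followed the labels. Itga6 had 15.9, 19.6 and 24.1 FPKM in CD49f-high, 6.05, 4.38 and 6.09 FPKM in CD49f-low, and 0.710, 0.433 and 0.283 FPKM in CD49f-neg replicates. By the estimated depth, 1 FPKM over 1 kilobase of transcript stood for about 23.7 to 27.3 fragments. Of 16 leukocyte rows, 13 stayed below 1 FPKM in every library, and Ptprc, the CD45 antigen, reached at most 0.0107 FPKM. The other 3 were Kit, Cd68 and Cpa3. Cd68, a lysosomal protein abundant in macrophages, had 1.33 to 2.44 FPKM in CD49f-high, 2.23 to 3.25 FPKM in CD49f-low and 1.37 to 2.12 FPKM in CD49f-neg libraries. Cpa3, a mast cell protease, had 3.94, 1.53 and 1.37 FPKM in CD49f-high, 2.38, 0.789 and 0.858 FPKM in CD49f-low, and 0.753, 0.290 and 0.665 FPKM in CD49f-neg replicates, so these 2 genes were as abundant as several members, and like Flt1 and Pecam1, Cpa3 was highest in replicate 1 of every gate. The leukocyte rows summed to 6.17 to 10.4 FPKM in CD49f-high, 26.1 to 32.8 FPKM in CD49f-low and 2.81 to 4.54 FPKM in CD49f-neg libraries, of which Kit, which melanocytes also express, gave 19.5 to 28.6 FPKM in CD49f-low libraries. Fibroblast markers were the most abundant list, at 4269 to 6355 FPKM in CD49f-high, 5756 to 6978 FPKM in CD49f-low and 13925 to 17050 FPKM in CD49f-neg libraries. Of the fibroblast rows, 8 of 10 fell in CD49f-high relative to CD49f-neg cells, where 8.27% of all rows tested were lower. In that comparison 7 of 7 tested keratinocyte rows, 7 of 7 tested Schwann rows and 5 of 8 melanocyte rows rose, beside 13.9% of all rows tested. Of these, 1 keratinocyte row and 1 Schwann row passed the filter only through the CD49f-high libraries. Of 4 tested platelet and erythroid rows the haemoglobin rows were the most abundant, and they varied within gates. The row shared by Hba-a1 and Hba-a2 had 181, 23.1 and 19.7 FPKM in CD49f-high, 177, 47.3 and 43.5 FPKM in CD49f-low, and 115, 75.1 and 257 FPKM in CD49f-neg replicates (CD49f-high minus CD49f-neg -1.55, limma adjusted p = 0.243). Replicate 1 was thus highest for haemoglobin in 2 gates and for Flt1 and Pecam1 in all 3. Flt1 and Pecam1 were the only 2 of the 10 members highest in replicate 1 of every gate. Kdr and the Egfl7 row were highest in replicate 3 of every gate. The part of blood in the levels of Flt1 and Pecam1 was not tested.

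**Figure D3:**
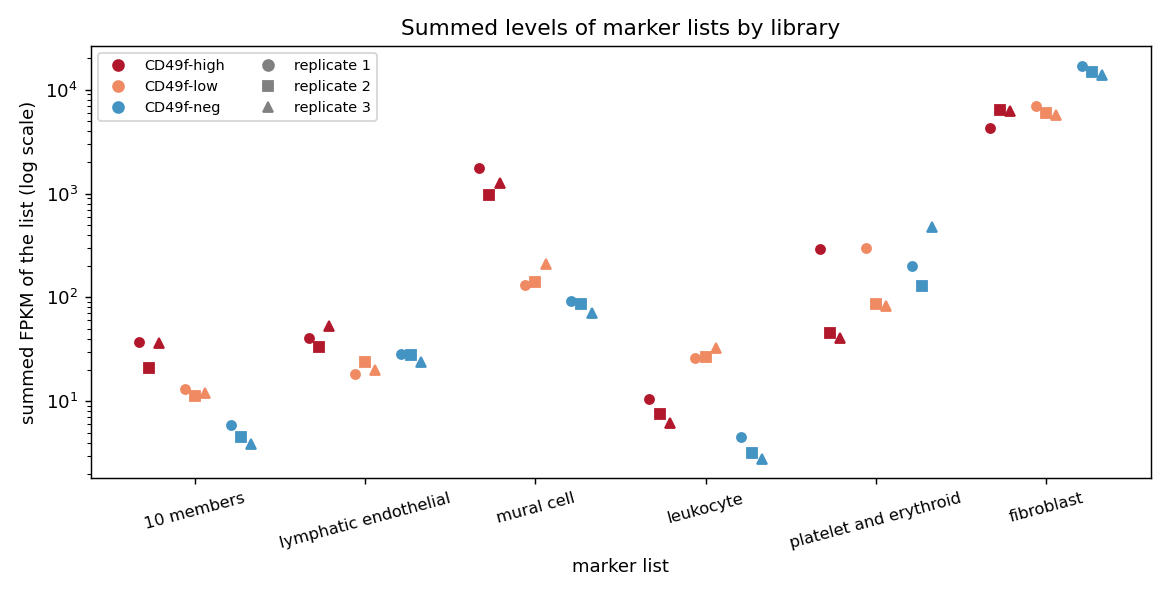
Summed FPKM (y axis, log scale) of the 10 blood endothelial markers and of 5 other marker lists in each library, coloured by gate (CD49f-high, CD49f-low, CD49f-neg) with 1 symbol per replicate number. The 10 markers sum to 20.9 to 37.3 FPKM in CD49f-high libraries, well below the 966 to 1768 FPKM of mural markers in the same libraries. The lymphatic sum includes Pdpn and Itga9, whose means were highest in CD49f-neg libraries.

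The wider endothelial programme was read from 40 other genes of blood endothelium. Of these, 18 passed the filter and 17 stayed below 1 FPKM in every library. Cdh5, Ecscr, Cd93, Adgrf5 and Nostrin were below 1 FPKM in every CD49f-low and CD49f-neg library and so passed only through the CD49f-high libraries, and 22 genes were not tested, so the counts describe the tested rows and not the list. Between CD49f-high and CD49f-neg cells 11 of the 18 rose, among them these 5, and 3 fell, where 13.9% of all rows tested were higher and 8.27% lower. Between CD49f-low and CD49f-neg cells 5 rose and 2 fell, where 12.8% of all rows were higher and 2.62% lower. Between CD49f-high and CD49f-low cells 9 rose and 1 fell, where 5.93% of all rows were higher and 10.5% lower. The list held both genes near 0 and abundant genes that stromal cells also express, such as Cav1.

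Cdh5, VE-cadherin of endothelial adherens junctions, had 3.995, 4.36 and 7.56 FPKM in CD49f-high, 0.702, 0.218 and 0.603 FPKM in CD49f-low, and 0.189, 0 and 0.0460 FPKM in CD49f-neg replicates (CD49f-high minus CD49f-neg 2.51, SE 0.22, limma adjusted p = 4.30e-05). It was more abundant than Pecam1 in each CD49f-high library. Gja4 and Gja5 are connexins of arterial endothelium. Gja4 averaged 18.9 ± 5.33 FPKM in CD49f-high, 1.33 ± 0.489 FPKM in CD49f-low and 0.0782 ± 0.0474 FPKM in CD49f-neg libraries (SD, n = 3 each). Its difference between CD49f-high and CD49f-neg cells was 4.17 (limma adjusted p = 4.66e-06), and that of Gja5 was 3.64 (limma adjusted p = 1.66e-05). Mural markers were abundant in the same CD49f-high libraries, and the part of mural cells in the Gja4 and Gja5 levels was not tested. Sele, E-selectin, a leukocyte adhesion molecule induced on activated endothelium, had 11.6, 23.0 and 9.83 FPKM in CD49f-high, 1.37, 2.69 and 1.16 FPKM in CD49f-low, and 0.802, 0.529 and 0.233 FPKM in CD49f-neg replicates, so replicate 2 was here the highest of the high gate. Its difference between CD49f-high and CD49f-neg cells was 3.30 (limma adjusted p = 6.96e-05). Sox13, Adgrf5, Nostrin, Cd93 and Ecscr rose as well, by 2.40, 2.82, 1.54, 1.78 and 1.22 on the log2 scale, with limma adjusted p from 2.40e-05 (Sox13) to 0.000230 (Ecscr). The 3 tested genes of this list that fell between these gates were Erg, given below, Cd34 and Ramp2, whose row also holds Vps25. Cd34 and Ramp2, singled out after their values were seen, had differences of -0.87 (limma adjusted p = 0.0282) and -0.66 (limma adjusted p = 0.00703).

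Endothelial transcription factors differed in their patterns. Of those that failed the filter, named here after their values were seen, Sox7, Hhex and Sox17 had means that decreased from high to low to negative gate. Sox7 averaged 0.712, 0.242 and 0.119 FPKM and Hhex 0.804, 0.225 and 0.0703 FPKM in that order. Tal1 had its highest mean in the high gate, and Lyl1 and Etv2 in the low gate. Among the tested factors, Erg, Sox18 and Fli1 had other patterns. Erg, an ETS factor of endothelium that cartilage also uses, fell in CD49f-high cells: it averaged 0.615 ± 0.147 FPKM in CD49f-high, 0.937 ± 0.157 FPKM in CD49f-low and 3.09 ± 1.06 FPKM in CD49f-neg libraries (SD, n = 3 each; CD49f-high minus CD49f-neg -1.31, limma adjusted p = 0.000996). Sox18, a factor of endothelium and dermal papilla that was singled out after its values were seen, had 15.4, 25.6 and 16.5 FPKM in CD49f-high, 66.3, 79.6 and 93.9 FPKM in CD49f-low, and 13.5, 23.2 and 26.6 FPKM in CD49f-neg replicates. It rose in CD49f-low relative to CD49f-neg cells (difference 1.91, SE 0.27, limma adjusted p = 0.00142) and was lower in CD49f-high than in CD49f-low cells (difference -2.02, limma adjusted p = 0.000793), so its low gate stood apart, as that of Kdr did. Fli1, another ETS factor singled out in the same way, stayed between 0.784 and 2.42 FPKM in all 9 libraries and rose in CD49f-low relative to CD49f-neg cells by 0.64 (limma adjusted p = 0.0457). Vwf, the clotting factor carrier of mature endothelium, also singled out after its values were seen, had 0.527, 0.229 and 0.398 FPKM in CD49f-high, 0.282, 0.127 and 0.137 FPKM in CD49f-low, and 0.0124, 0.0423 and 0.0143 FPKM in CD49f-neg replicates.

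**Figure D4:**
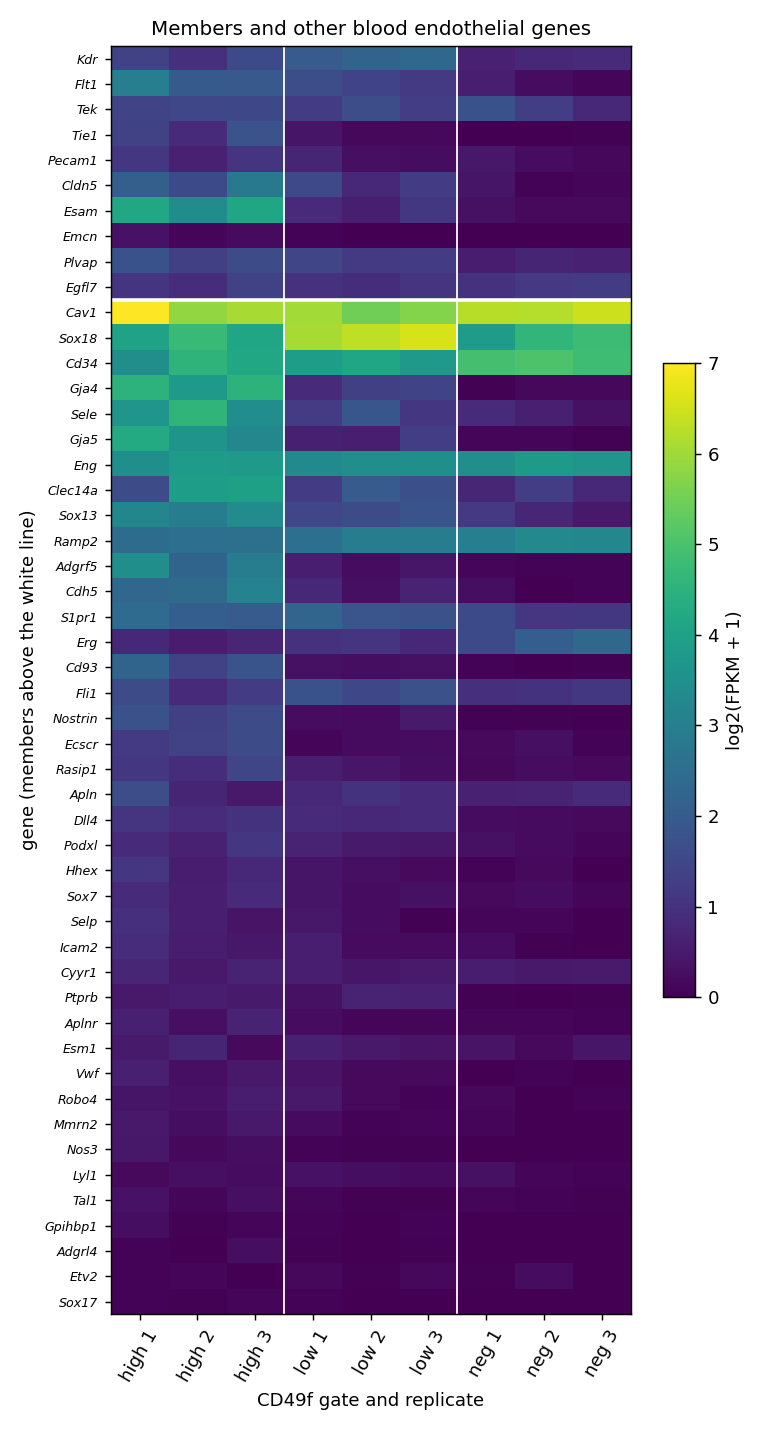
Levels as log2(FPKM + 1) (colour, from 0 to 7) of the 10 markers above the white line and 40 other blood endothelial genes below it, in the CD49f-high, CD49f-low and CD49f-neg libraries (columns). Gja4, Gja5 and Sele are bright in the 3 CD49f-high libraries, Sox18 is brightest in the 3 CD49f-low libraries, and most rows at the bottom are dark in all 9.

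The ligands and co-receptors of these receptors were measured in the same libraries. Of 10 genes, 9 passed the filter, and between CD49f-high and CD49f-neg cells 4 rose and 2 fell, where 13.9% of all rows tested were higher and 8.27% lower. With the replicate block 5 rose and 3 fell. Angpt2 and Angpt1, the ligands of Tek, both rose. Angpt2 had 14.2, 11.3 and 13.9 FPKM in CD49f-high, 1.77, 1.43 and 2.21 FPKM in CD49f-low, and 1.29, 1.14 and 0.733 FPKM in CD49f-neg replicates (CD49f-high minus CD49f-neg 2.79, SE 0.16, limma adjusted p = 4.84e-06). Angpt1 averaged 6.32 ± 1.09 FPKM in CD49f-high, 1.21 ± 0.308 FPKM in CD49f-low and 0.675 ± 0.241 FPKM in CD49f-neg libraries (SD, n = 3 each; CD49f-high minus CD49f-neg 2.13, limma adjusted p = 2.27e-05). Both are also made by mural cells. Vegfa, the ligand of Kdr and Flt1, averaged 8.35 ± 0.818 FPKM in CD49f-high, 7.49 ± 1.39 FPKM in CD49f-low and 3.48 ± 0.588 FPKM in CD49f-neg libraries (SD, n = 3 each). It rose in both positive gates relative to CD49f-neg cells, by 1.07 in CD49f-high (limma adjusted p = 0.000834) and by 0.92 in CD49f-low cells (limma adjusted p = 0.00358). The co-receptor Nrp2 fell in CD49f-high relative to CD49f-neg cells (difference -0.87, limma adjusted p = 0.000347). The co-receptor Nrp1, singled out after its values were seen, rose in the same comparison (difference 0.71, limma adjusted p = 0.00136).

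Lymphatic endothelial genes, which share Tie1 and Pecam1 with blood endothelium, were measured on 11 rows, of which 8 passed the filter. Between CD49f-high and CD49f-neg cells 6 rose and 2 fell, where 13.9% of all rows tested were higher and 8.27% lower. The 6 that rose (Lyve1, Flt4, Mmrn1, Reln, Foxc2 and 1 Ccl21a row) were all below 1 FPKM in every CD49f-low and CD49f-neg library, so they passed only through the gate where they were high and the count is fixed in part by the filter. Lyve1, a hyaluronan receptor of lymphatic vessels, had 8.10, 3.19 and 10.9 FPKM in CD49f-high, 0.773, 0.296 and 0.888 FPKM in CD49f-low, and 0.0915, 0.0734 and 0 FPKM in CD49f-neg replicates (CD49f-high minus CD49f-neg 2.87, SE 0.33, limma adjusted p = 0.000240). Like Tie1 and Cldn5, it was lowest in replicate 2 and highest in replicate 3 of the high gate. Reln and Foxc2 also rose, by 3.26 (limma adjusted p = 3.09e-06) and 1.87 (limma adjusted p = 4.70e-05), while Itga9 had a difference of -1.33 (limma adjusted p = 0.000227). The rows summed to 33.6 to 53.3 FPKM in CD49f-high, 18.3 to 24.1 FPKM in CD49f-low and 23.7 to 28.3 FPKM in CD49f-neg libraries. These sums include the 2 genes that fell, Itga9 and Pdpn, the latter singled out after its values were seen. Pdpn averaged 6.53, 10.7 and 16.3 FPKM and Itga9 3.31, 6.94 and 9.78 FPKM in CD49f-high, CD49f-low and CD49f-neg libraries. The sums therefore understate how far the 6 genes that rose differ between gates. The part of lymphatic genes in the levels of the shared genes was not tested.

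Among 11979 tested rows with exactly 1 symbol, 6 genes followed the mean standardised profile of the 7 tested members most closely over the 9 libraries. They were Tmem30a, Agps, Arpc5, Mtmr12, Anapc16 and Med16, with likeness from 0.988 (Tmem30a) to 0.969 (Med16) as a correlation coefficient given as a description only, since the libraries share gate and replicate number. Tmem30a had 12.2, 10.1 and 12.8 FPKM in CD49f-high, 9.36, 9.29 and 9.93 FPKM in CD49f-low, and 8.26, 7.98 and 7.67 FPKM in CD49f-neg replicates.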

How the data were processed

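RNA was sequenced from 9 libraries of sorted dermal cells, 3 for each of 3 CD49f gates, grouped by the gate in their titles. Cells went straight from the sorter into Trizol and libraries came from the NEBNext Ultra kit, per the labels' protocols. The values are FPKM in 1 table that the authors deposited. The tools FastQC, TopHat2 and StringTie and the build GRCm38 are named in the submitters' processing notes, without versions, and filters are not given in the sources used here. Neither is strand, so a gene that overlaps another on the opposite strand is uncertain.

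The deposited FPKM entered as log2(FPKM + 1) on the 20523 rows with at least 1 FPKM in at least 3 libraries. limma 3.58.1 (R 4.3.3) fitted the gate means of all 9 libraries with a mean-variance trend and 6 residual degrees of freedom. Benjamini-Hochberg adjustment ran over every tested row, and calls were made at an adjusted p under 0.05. No label says that replicates came from separate animals, so p-values reflect only the spread among these libraries, which may be technical. Intervals of differences are at 95%. Depth was estimated from single-exon genes of at least 300 bases in GENCODE M21, whose lowest FPKM pile up at whole fragments, and gave 23.7 to 27.3 fragments for each FPKM and kilobase. Estimated fragments per member use its longest annotated transcript. The method was tested on simulated data.

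The 10 members and the 10 other marker lists were chosen with earlier results of these data known. The text names all members. From each other list it names genes among up to 4 (10 for other blood endothelial genes) called between CD49f-high and CD49f-neg cells with the smallest adjusted p, or the 2 most abundant where none was called. It also names the 6 rows most like the members' profile. Exceptions are marked where they stand, except Cav1, Ptprc, Cd68, Cpa3, Flt4, Mmrn1 and Ccl21a, which were picked after their values were seen.

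Libraries with the same replicate number deviated together: over 9 pairs their deviations from gate means correlated at 0.252 to 0.520, against -0.453 to 0.118 over 18 pairs of different numbers. The labels give no source for this pairing. The alternatives tried were the block by replicate number, no trend, quantile normalization, median-of-ratios scaling, a filter at 5 FPKM or none, a pseudocount of 0.1, a fit restricted to the 6 libraries of a comparison, and every library left out in turn. Promoter sequences are from RefSeq (GRCm38.p6). Tables were handled in Python 3.11.15 with pandas 2.3.3 and figures drawn with matplotlib 3.10.9.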

Additional observations from a re-analysis of the deposited data

How the results depend on the processing

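Of 447 recomputed differences of members, 402 kept their direction and side of the threshold or stayed within the spread between replicates. Part of these could not change direction. The difference itself is the same with no filter, no trend, the block, the fit on 6 libraries, or a library of the third gate left out. There only the adjusted p could move, and for members that failed the filter the outcome was fixed, so 402 overstates the stability. Esam, Flt1, Cldn5 and Plvap between CD49f-high and CD49f-neg cells, Esam and Kdr between CD49f-high and CD49f-low cells, and Kdr between CD49f-low and CD49f-neg cells were called under every alternative that tested them. With a filter at 5 FPKM, Esam was the only member left to test: 1911, 1358 and 1323 rows were called in CD49f-high minus CD49f-neg, CD49f-low minus CD49f-neg and CD49f-high minus CD49f-low, and 1, 0 and 1 members (in the second, limma gave Esam an adjusted p of 0.0997, with 1 member at an unadjusted p under 0.05). For CD49f-low minus CD49f-neg, 5 members were called with a pseudocount of 0.1, with the replicate block and in the fit on 6 libraries, and 1 with quantile normalization, which called 2044 rows. The replicate block called 5806 rows there and 5309 rows in CD49f-high minus CD49f-low, and changed no member's call beyond those given in the report. Among other blood endothelial genes it called 6 higher and 3 lower in CD49f-low minus CD49f-neg and 10 higher and 1 lower in CD49f-high minus CD49f-low. In CD49f-high minus CD49f-low, 4 members were called with median-of-ratios scaling, with quantile normalization and with the block. Leaving out 1 library gave 3232 to 4653, 1614 to 3764 and 2201 to 3585 rows called in the 3 comparisons, and 4 to 5, 1 to 5 and 2 to 3 members. In CD49f-low minus CD49f-neg the fewest rows were called without CD49f-neg replicate 3 (1614), CD49f-low replicate 3 (1681) and CD49f-low replicate 2 (1726), and in CD49f-high minus CD49f-low without CD49f-low replicate 3 (2201). The lowest of these member counts, 1, came without CD49f-neg replicate 3, and the highest, 5 in each of the first 2 comparisons, without CD49f-high replicate 2. Mean sums of the members ran from 28.8 to 37.0 FPKM in CD49f-high, 11.6 to 12.6 FPKM in CD49f-low and 4.22 to 5.22 FPKM in CD49f-neg libraries. The CD49f-low sum was 10.9 FPKM with median-of-ratios scaling, and the CD49f-high sum was 17.2 FPKM without Esam. With a pseudocount of 0.1, all 9 differences of Pecam1, Tie1 and Emcn, which failed the filter, moved beyond the spread between replicates. Only Tek and the Egfl7 row changed sign among the tested members, and their differences were never called. Tek in CD49f-high minus CD49f-neg was -0.037 without CD49f-neg replicate 3 and up to 0.44 without another library. Tek in CD49f-low minus CD49f-neg was -0.062 with median-of-ratios scaling, -0.15 with quantile normalization, -0.035 without CD49f-low replicate 2 and from -0.13 without CD49f-neg replicate 3 to 0.346 without CD49f-neg replicate 1. The Egfl7 row in CD49f-high minus CD49f-neg was 0.075 without CD49f-high replicate 2, 0.024 without CD49f-neg replicate 3 and as low as -0.159 without CD49f-high replicate 3, and in CD49f-high minus CD49f-low it ran from -0.006 without CD49f-high replicate 3 to 0.228 without CD49f-high replicate 2. The causes were not tested. Depth limits Emcn, Tie1, Cldn5 and Esam in CD49f-neg libraries, where values rest on few fragments.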
